A study of Mus musculus with 74 samples.

Results

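The data described here were the 8 RNA-seq libraries of whole L4 dorsal root ganglion (DRG) in this series, 4 from mice taken 1 day after a spinal cord injury (SCI) and 4 from uninjured mice, with 1 library per mouse. They were chosen by their sample titles from 74 libraries in all, and the other 66 libraries, of sorted neurons, were not used here. All 8 mice were wild type C57BL/6 females of 10 to 12 weeks. The SCI was a dorsal hemisection at T9/10, well above the level at which L4 sensory axons enter the cord, so that the L4 ganglion itself was not cut. The libraries were made from total RNA after removal of ribosomal RNA. The sources used here describe no sham operation for the uninjured mice, so the cut of the dorsal cord cannot be told apart from the laminectomy, the isoflurane anaesthesia, the buprenorphine given before surgery and the recovery. The question is which genes other than those of lipid synthesis and the regeneration-associated transcription factors changed in the ganglion, and to which functions they belong.

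A DRG holds the cell bodies of sensory neurons, each wrapped by satellite glial cells, with myelinating Schwann cells along the axons, resident macrophages, fibroblasts and a capillary network without a tight barrier to the blood. Each neuron sends an axon branch to the periphery and another into the spinal cord, and a subset of the large neurons continues up the dorsal columns, which this injury cuts. An injury far from the ganglion can reach it along these central axons and also through the circulation. After trauma the adrenal cortex, under the control of the hypothalamus and pituitary, releases glucocorticoids. These enter cells and act through the glucocorticoid receptor, a transcription factor. The liver and other tissues release acute phase proteins under the control of interleukin 6 family cytokines.

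Between 21959030 and 44493319 reads per library were counted on genes. The 6 sensory neuron markers summed to between 7821 and 8212 CPM (counts scaled to the same library size in every mouse, with TMM normalization) in the uninjured and between 7807 and 8570.0 CPM in the SCI libraries, and each of the 6 had reads in every library. Markers of cells outside the ganglion also moved. The 3 skeletal muscle markers summed to 360.0 and 205 CPM in SCI 1 and SCI 4, against at most 8.33 CPM in any other library. The 5 red blood cell markers summed to 61.1, 88.5 and 70.02 CPM in SCI 1, 2 and 3, but to 20.7 CPM in SCI 4, within the uninjured range of 13.4 to 21.3 CPM. The 2 adipocyte markers summed to between 0.262 and 0.467 CPM in uninjured and between 0.486 and 0.855 CPM in SCI mice. At this low level, 1 of them had no read in some library. Uninjured 1 and SCI 3 had the lowest sums over 75 respiratory chain genes in their groups, 7695 and 9167 CPM, against 10540.0 to 11680.0 CPM in the other 6 libraries. No label or header names a batch.

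**Figure D1:**
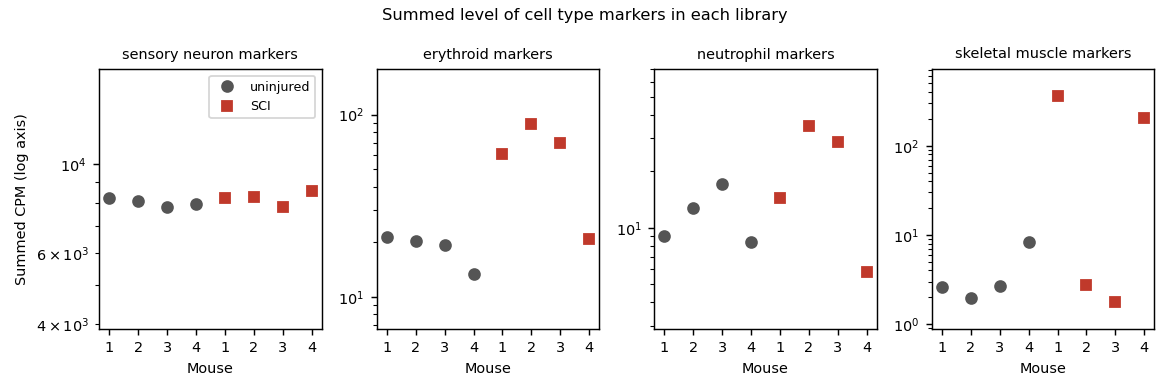
Summed CPM (log axis) of the sensory neuron, red blood cell, neutrophil and skeletal muscle markers in each library, with grey circles for the uninjured and red squares for the SCI mice. The neuronal sum lay between 7807 and 8570.0 CPM in all 8 libraries, the red blood cell sum was high in SCI 1, 2 and 3, and the muscle sum was high in SCI 1 and 4.

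Of 17616 genes tested, those that averaged 10 reads or more per library, 408 were DE (2.32%), of which 243 were increased (1.38%) and 165 decreased (0.937%) after SCI at an adjusted p-value (p-adj) under 0.1, by edgeR's quasi-likelihood test with Benjamini-Hochberg adjustment over all genes, which gives every p-adj below. Fold changes are given on the log2 scale with their standard error (SE), and CPM is after TMM scaling. The median change was 0.74 over the 243 increased genes, of which 74 at least doubled, and -0.42 over the 165 decreased genes, of which 4 at least halved. The median over all genes tested was 0.01. An unadjusted p under 0.05 was found for 2570 of the 17616 genes, and DESeq2 called 509 of the 17616 higher and 420 lower. These all-gene counts are the background for the list counts given below. All SCI libraries lay above all uninjured libraries for 866 genes (4.92%) and below them for 1070 genes (6.07%), and this held for 238 of the 243 increased and 163 of the 165 decreased genes. Without any 1 of uninjured 2, 3 or 4 or SCI 1 or 2, the counts fell to between 70 and 107 higher and between 32 and 68 lower, and without SCI 3 there were 361 and 279. Without uninjured 1 and SCI 3 together, the counts were 914 and 1127. With the summed level of the haemoglobin genes and Alas2 in the model, 9 genes were higher and none lower. Lists of genes by function, 57 in all, held 1388 of the genes tested and 105 of the 408 DE genes, and 2 of them, lipid synthesis and regeneration transcription factors, are not described. The counts by list follow the order of hormone response, cytokines and immune cells, blood, matrix, glia, neurons and general cell functions. In whole tissue, a change in the number of cells of a type and a change in the RNA per cell cannot be told apart.

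**Figure D2:**
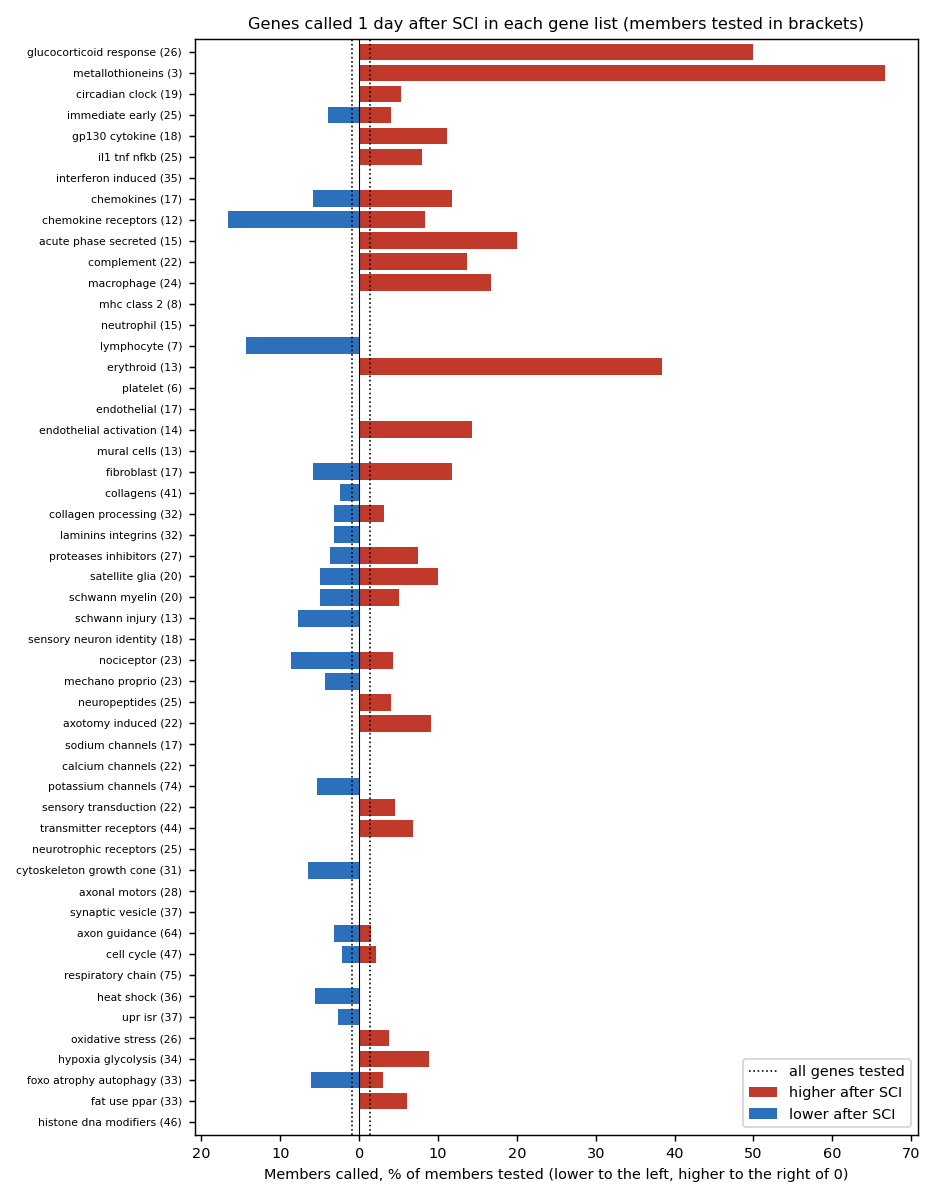
Share of the tested members of each gene list that were called higher (red, to the right) or lower (blue, to the left) after SCI, in % of the members tested, whose number stands in brackets. Lipid synthesis, regeneration factors, skeletal muscle, adipocytes and spinal cord glia are not drawn. The dotted lines mark the shares over all genes, 1.38% higher and 0.937% lower. The glucocorticoid list had 13 of 26 members called higher, and the metallothioneins 2 of 3.

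The clearest group consisted of genes known to be induced by glucocorticoids in many tissues. Of 26 such genes tested, 13 were increased (beside 1.38% of all genes) and none decreased. All 26 had a positive fold change and an unadjusted p under 0.05, with a median of 0.52 beside 0.01 for all genes. The list was written with earlier results of these libraries known, so these counts give no independent support. DESeq2 called 21 of them increased and none decreased. Without SCI 1 and 4, the libraries with muscle RNA, 14 were increased, and with the haemoglobin genes and Alas2 in the model 2 were. Plin4 (chr17:56100591-56109803), which coats lipid droplets, showed the largest change. Its level was 2.90, 1.84, 2.85 and 5.56 CPM in the uninjured and 36.4, 40.8, 38.2 and 27.1 CPM in the SCI mice (3.44 ± 0.28, p-adj = 0.000535). The lowest SCI mouse was well above the highest uninjured mouse. Zbtb16 (chr9:48654297-48836222), a zinc finger repressor also known as PLZF, rose from 9.50, 7.88, 8.08 and 9.60 CPM to 18.1, 20.1, 20.1 and 20.4 CPM (1.17 ± 0.10, p-adj = 0.000535), with the 4 SCI mice close together. Map3k6, a stress-activated kinase, was at 7.95, 8.30, 8.31 and 9.13 CPM and then at 15.8, 19.9, 17.1 and 15.8 CPM (1.02 ± 0.10, p-adj = 0.00164). Hif3a, a negative regulator of the hypoxia response, was at 0.608, 1.22, 1.12 and 1.89 CPM in uninjured and 4.24, 6.67, 5.81 and 4.32 CPM in SCI mice (2.08 ± 0.27, p-adj = 0.00893). The groups did not overlap for any of these genes.

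The remaining members that were called rose less. Mertk, a receptor for the uptake of dead cells, was at 11.9, 15.4, 15.04 and 18.2 CPM in uninjured and 26.4, 27.2, 29.6 and 29.7 CPM in SCI mice (0.89 ± 0.12, p-adj = 0.00893). Fkbp5, a co-chaperone that restrains the glucocorticoid receptor, was at 63.96, 56.6, 61.3 and 78.4 CPM and 99.6, 97.1, 84.7 and 102 CPM (0.56 ± 0.10, p-adj = 0.0358). In both genes the groups were apart. Arrdc2, an arrestin-like protein, was at 21.8, 21.7, 21.8 and 21.5 CPM in uninjured mice and was at 33.4, 50.2, 32.9 and 34.4 CPM after SCI (0.80 ± 0.13, p-adj = 0.0227), where SCI 2 was higher than the others. Per1, a clock gene with a direct glucocorticoid response, was at 14.6, 18.5, 14.02 and 12.2 CPM and 21.3, 26.9, 39.6 and 20.8 CPM (0.88 ± 0.21, p-adj = 0.0806). The cell cycle inhibitor Cdkn1a (0.66), the transcription factor Cebpd (0.71), the NF-kB inhibitor Nfkbia (0.62), the MAP kinase phosphatase Dusp1 (0.49) and the glutamine synthetase Glul (0.32) completed the 13. Some widely used glucocorticoid targets did not pass the threshold. Tsc22d3 (GILZ) was at 215, 300.3, 300.2 and 319 CPM in uninjured and 330.0, 394, 310.1 and 359 CPM in SCI mice (0.29 ± 0.12, p-adj = 0.294), and Sgk1 was at 29.5, 40.3, 49.4 and 42.5 CPM and 42.2, 79.9, 72.7 and 58.96 CPM (0.65 ± 0.20, p-adj = 0.168). The groups overlapped for both genes, by SCI 3 below uninjured 4 for Tsc22d3 and by SCI 1 below uninjured 3 and 4 for Sgk1. Pdk4, which switches cells from glucose to fat use, was 36.02, 11.5, 10.8 and 12.8 CPM after SCI against 5.80, 5.15, 7.87 and 7.50 CPM (1.43 ± 0.37, p-adj = 0.116), and its value in SCI 1, a library with muscle RNA, was by far the highest. The number of increased members fell to 6 without uninjured 3 or SCI 2 and to 7 without uninjured 2, and lay between 9 and 14 without any other single library.

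**Figure D3:**
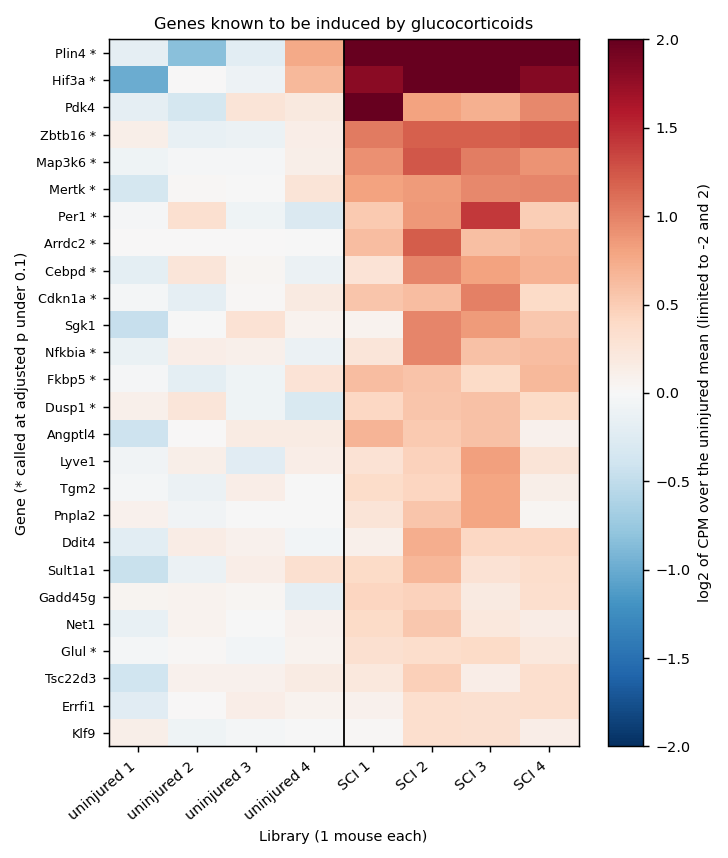
Log2 of CPM over the mean of the uninjured mice for the 26 genes known to be induced by glucocorticoids, by library, ordered by fitted fold change, with an asterisk on the 13 genes called. All 4 SCI columns are red for the upper rows, and the colour is limited to changes of 2 in either direction.

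The 300 bases around the start of each gene (250 before and 50 after, from RefSeq on GRCm38.p6) were searched for short motif letters on both strands. A promoter was in the table for 12407 of the genes tested, among them 184 increased and 129 decreased genes. The core of a glucocorticoid receptor site, ACANNNTGT, which reads the same on both strands, was present for 12.5% of increased genes (23 of 184), 5.53% of all genes tested and 3.1% of decreased genes (4 of 129). An NF-kB site, GGANTTTCC, was present for 5.98% of increased genes (11 of 184), 1.62% of all genes and none of the 129 decreased genes. The STAT letters TTCNNNGAA were in 9.78% of increased, 4.65% of decreased and 8.41% of all genes, and the AP-1 letters TGANTCA in 9.78%, 6.2% and 6.37%. The cyclic AMP element TGACGTCA (2.17%, 1.55% and 3.31%) and the D-box TTATGNAA (3.26%, 4.65% and 2.63%) were found for increased, decreased and all genes, in that order, and the E-box CACGTG for 17 of 184, 11 of 129 and 1367 of 12407 genes. These shares are descriptions of letters and no test was made on them. Among the 11 increased genes of the glucocorticoid list with a promoter in the table, only Map3k6 and Glul had the core in this window. The 250 bases before the start are shown for both and for Serpina3n, with the core in capitals, and for Nfkbia with its NF-kB letters in capitals. These genes were picked as increased genes that hold the letters, so they do not stand for the other increased genes.
Map3k6, chr4:133240568-133240817, plus strand: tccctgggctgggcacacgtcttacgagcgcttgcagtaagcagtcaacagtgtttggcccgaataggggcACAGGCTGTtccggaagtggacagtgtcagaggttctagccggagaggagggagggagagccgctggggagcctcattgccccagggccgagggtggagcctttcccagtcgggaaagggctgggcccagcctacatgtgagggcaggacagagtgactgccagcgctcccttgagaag
Glul, chr1:153899679-153899928, plus strand: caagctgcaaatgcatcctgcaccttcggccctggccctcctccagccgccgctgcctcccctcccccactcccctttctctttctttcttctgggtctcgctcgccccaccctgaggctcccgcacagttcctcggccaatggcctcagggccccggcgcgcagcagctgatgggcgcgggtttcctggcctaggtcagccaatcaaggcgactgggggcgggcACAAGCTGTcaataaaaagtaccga
Serpina3n, chr12:104406458-104406707, plus strand: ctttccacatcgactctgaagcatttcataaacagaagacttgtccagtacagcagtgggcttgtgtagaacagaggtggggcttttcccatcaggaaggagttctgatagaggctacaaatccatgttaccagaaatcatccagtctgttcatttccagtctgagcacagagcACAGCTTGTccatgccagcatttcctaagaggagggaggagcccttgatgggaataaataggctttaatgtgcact
Nfkbia, chr12:55492648-55492897, minus strand: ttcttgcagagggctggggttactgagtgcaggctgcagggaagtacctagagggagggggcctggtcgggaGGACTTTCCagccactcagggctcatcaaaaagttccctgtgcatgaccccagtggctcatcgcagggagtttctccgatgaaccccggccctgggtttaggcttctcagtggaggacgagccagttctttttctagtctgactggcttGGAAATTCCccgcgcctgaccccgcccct
The core began 179 bases before the start in Map3k6, 25 bases in Glul and 76 bases in Serpina3n, and the NF-kB letters of Nfkbia began 178 and 29 bases before its start.

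Of 3 metallothionein genes tested, which encode small proteins that bind zinc and copper, 2 were increased by edgeR and by DESeq2. Both of these, Mt1 and Mt2, are known to be raised by metals and by glucocorticoids. Mt2 was at 1.12, 2.23, 2.67 and 3.54 CPM in uninjured and 6.73, 10.6, 9.84 and 8.50 CPM in SCI mice (1.87 ± 0.27, p-adj = 0.0131), and Mt1 was at 12.3, 28.6, 32.03 and 37.95 CPM and 48.3, 72.4, 67.3 and 64.2 CPM (1.17 ± 0.27, p-adj = 0.0746). Both of these genes were lowest in uninjured 1, and the groups did not overlap. Mt3, the form best known from brain, was at 34.7, 74.6, 62.2 and 70.2 CPM and 70.1, 68.5, 61.6 and 75.6 CPM, which did not pass (0.19 ± 0.19, p-adj = 0.711). Most exon bases of Mt2 (73.5%) are shared with an annotated gene on the other strand, and the strand setting of the counting is not given in the sources used here, so its reads cannot be told apart from those of that gene. Other clock genes were not called with Per1, which was the only 1 of 19 clock genes tested that was called by edgeR or by DESeq2, and 2 had an unadjusted p under 0.05. Dbp, a clock output gene with a strong daily rhythm, was at 46.7, 32.3, 13 and 15.4 CPM in uninjured mice and 15.1, 16.7, 18.99 and 16.5 CPM in SCI mice. It was thus higher in uninjured 1 and 2 than in any of the other 6 libraries. The time of day of dissection is not given in the sources used here.

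The receptor chains Il6ra and Osmr were the genes called by edgeR in the interleukin 6 cytokine family pathway. Of 18 genes tested, 2 were increased and none decreased, with 3 and none by DESeq2 and 5 with an unadjusted p under 0.05. Il6ra, the ligand-binding receptor chain for interleukin 6, went from 2.62, 2.57, 2.67 and 2.75 CPM to 5.42, 5.03, 6.00 and 4.50 CPM (0.99 ± 0.12, p-adj = 0.00618). Osmr, the receptor chain for oncostatin M that in DRG is also found in itch neurons, went from 33.97, 36.3, 31.5 and 40.4 CPM to 52.4, 53.1, 60.8 and 50.8 CPM (0.61 ± 0.09, p-adj = 0.0159). For both receptors every SCI mouse was above every uninjured mouse. Of the interleukin 1, TNF and NF-kB pathway, 2 of 25 genes were increased, Nfkbia and the TWEAK receptor gene Tnfrsf12a (0.82), and none decreased, with 5 and none by DESeq2 and 7 at an unadjusted p under 0.05. None of 35 interferon-induced genes was called by edgeR or DESeq2, 2 had an unadjusted p under 0.05, and their median was -0.03. Among 25 immediate early genes other than Jun and Atf3, Dusp1 rose and Dusp5 (-0.49) fell, and DESeq2 called 4 higher and 2 lower.

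A minority of the acute phase and complement genes was increased. Of 15 acute phase genes tested, 3 were increased and none decreased, with a median of 0.35, and DESeq2 called 5 higher and 1 lower. Itih3 (chr14:30908572-30923760), a heavy chain that stabilizes hyaluronan, rose from 1.31, 1.46, 2.07 and 1.78 CPM to 10.1, 6.42, 8.15 and 8.32 CPM (2.30 ± 0.18, p-adj = 0.000535). Serpina3n (chr12:104406729-104414329), a serine protease inhibitor made by glia and liver, rose from 160.0, 166, 175 and 196 CPM to 283, 310.3, 274 and 294 CPM (0.74 ± 0.08, p-adj = 0.00192). It was by far the most abundant of this group, and the 4 SCI mice lay close together. Saa3 (chr7:46711998-46715700), a serum amyloid A protein made outside the liver, was nearly absent from uninjured ganglia, with 0, 0, 1 and 2 reads, and had 28, 20, 18 and 18 reads after SCI. Over each group these were 3 and 84 reads, a ratio per read counted of 32.6 with an exact 95% interval of 10.8 to 161 that covers counting error only (edgeR p-adj = 0.00611). Other genes of the Serpina3 family, which lie beside Serpina3n on chromosome 12, were also called: Serpina3i (0.96), Serpina3c (0.73), Serpina3g (0.50) and the pseudogene Serpina3h (1.01), named after their values were seen. These genes are close copies, so reads may be assigned to the wrong one. Timp1, a metalloproteinase inhibitor, was at 0.328, 0.653, 0.706 and 0.577 CPM and 1.48, 1.96, 1.71 and 0.585 CPM, which did not pass (1.32 ± 0.34, p-adj = 0.111), and SCI 4 was within the uninjured range. Of 22 complement genes, 3 were increased and none decreased, with a median of 0.37. DESeq2 called 4 of them higher and none lower. C3, the central component, went from 3.93, 4.79, 5.12 and 4.04 CPM to 9.89, 8.17, 12.2 and 8.68 CPM (1.12 ± 0.15, p-adj = 0.00925). C4b, from the classical branch, went from 45.5, 44.2, 38.8 and 41.1 CPM to 57.9, 59.8, 68.8 and 53.5 CPM (0.50 ± 0.09, p-adj = 0.0321). Each group was apart from the other for both genes.

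**Figure D4:**
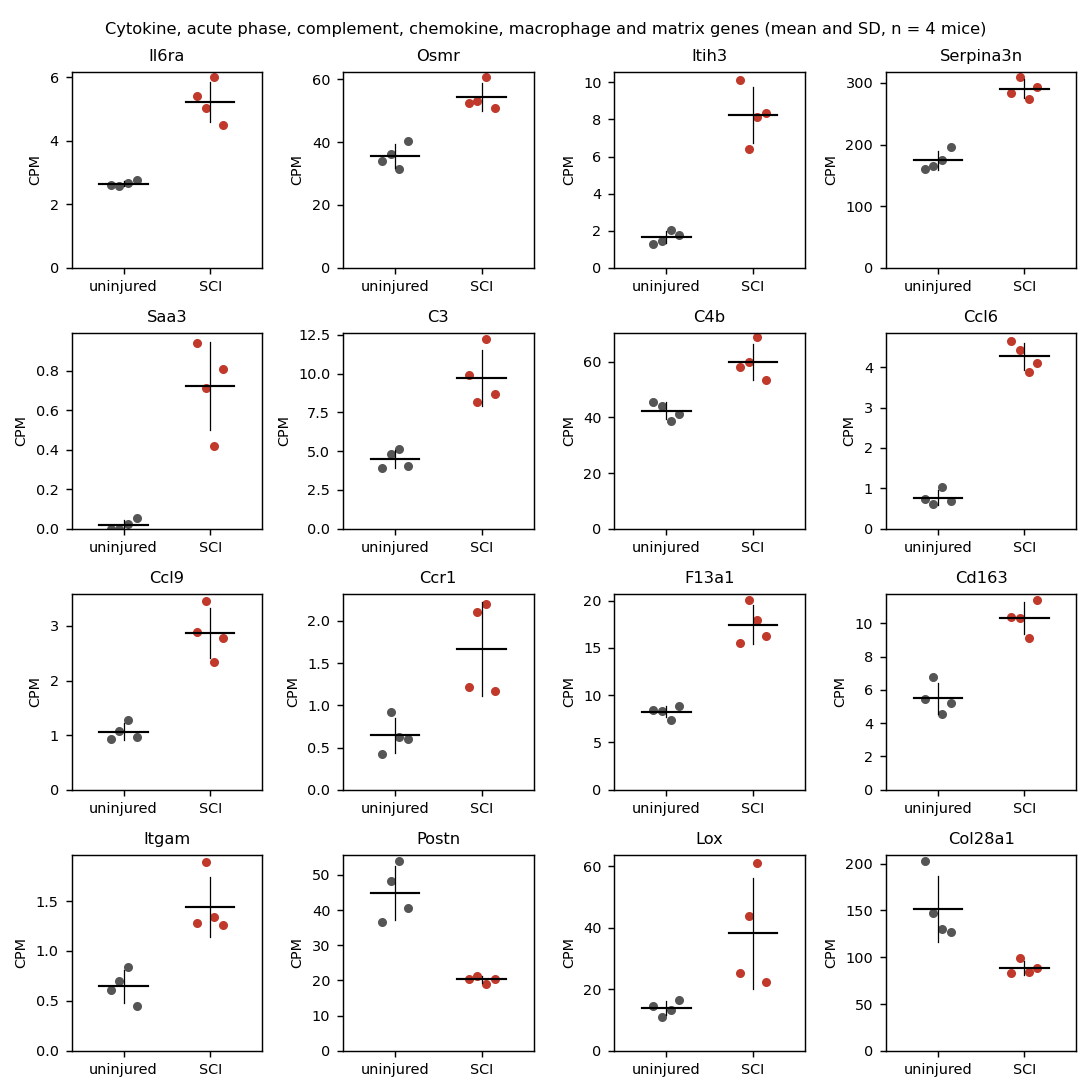
CPM of 16 genes in each mouse, uninjured in grey and SCI in red, with the mean as a bar and the SD as a line (n = 4 mice per group) and each axis starting at 0. In all 16 panels the groups do not overlap, and Postn and Col28a1 are lower after SCI. The genes were picked from the DE genes, where this held for 238 of 243 increased and 163 of 165 decreased genes. Over all genes tested, 4.92% had every SCI library above and 6.07% below every uninjured library.

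Chemokines changed in both directions. Of 17 ligands tested, 2 were increased and 1 decreased. Ccl6 (chr11:83587882-83593087), an attractant of monocytes, was at 0.749, 0.608, 1.05 and 0.682 CPM in uninjured and 4.64, 4.42, 3.89 and 4.09 CPM in SCI mice (2.46 ± 0.18, p-adj = 0.000437), and Ccl9, its neighbour on chromosome 11, was at 0.936, 1.08, 1.28 and 0.970 CPM and 2.89, 3.46, 2.34 and 2.79 CPM (1.41 ± 0.17, p-adj = 0.00635). Cxcl12, a retention factor for leukocytes and stem cells, fell from 38.3, 37.6, 41.3 and 37.8 CPM to 24.6, 25, 32.9 and 21.99 CPM (-0.56 ± 0.11, p-adj = 0.0464), and its receptor Cxcr4 fell with it (-0.49). Of 12 chemokine receptors, Cxcr4 and Cx3cr1, the fractalkine receptor of resident macrophages (-0.62), were decreased, and Ccr1, which binds Ccl6 and Ccl9, was increased from 0.421, 0.923, 0.628 and 0.603 CPM to 1.21, 2.10, 2.20 and 1.17 CPM (1.35 ± 0.29, p-adj = 0.0595). DESeq2 gave the same numbers of calls for both lists.

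Of 24 macrophage genes, 4 were increased and none decreased, and all 24 had a positive fold change, with a median of 0.31. DESeq2 called 5 higher and none lower. Cx3cr1, the receptor of resident macrophages that was decreased, is counted with the chemokine receptors and is not in this list. This list too was written with earlier results of these libraries known. F13a1, a coagulation factor subunit of tissue macrophages, was at 8.47, 8.35, 7.40 and 8.86 CPM in uninjured and 15.5, 20.1, 17.99 and 16.2 CPM in SCI mice (1.08 ± 0.11, p-adj = 0.00164). Cd163, the scavenger receptor for haemoglobin bound to haptoglobin, rose from 5.43, 6.75, 4.58 and 5.19 CPM to 10.4, 10.3, 9.10 and 11.4 CPM (0.90 ± 0.13, p-adj = 0.0141). The integrin chain Itgam (1.14) and the low-affinity IgG receptor Fcgr3 (1.00) also rose, although most exon bases of Itgam (68.7%) overlap another annotated gene. The 4 general macrophage markers Aif1, Cd68, Csf1r and Adgre1 summed to between 15.5 and 23.98 CPM in uninjured and between 20.8 and 23.6 CPM in SCI mice. The sums thus overlapped while single genes rose, and a part of cell number in these changes was not tested. The count of increased macrophage genes was 2 without uninjured 2, uninjured 4, SCI 1 or SCI 2. None of 15 neutrophil genes was called by edgeR, although all 15 fold changes were positive with a median of 0.87. DESeq2 called 2 and 6 had an unadjusted p under 0.05. S100a8, a calcium-binding protein of neutrophils, was at 1.26, 2.95, 3.98 and 2.07 CPM and 3.36, 8.06, 7.32 and 1.75 CPM (0.98 ± 0.45, p-adj = 0.344), with SCI 2 and 3 above and SCI 4 below most uninjured mice. The 5 neutrophil markers, S100a8 among them, summed to 14.4, 35.1, 28.6 and 5.80 CPM in SCI 1 to 4, against 8.44 to 17.2 CPM in uninjured mice. None of 8 MHC class II genes was called by either tool, with a median of -0.39 and 2 at an unadjusted p under 0.05. Of 7 lymphocyte genes, edgeR called none higher and 1 lower, and DESeq2 called 1 higher and 1 lower. The immunoglobulin heavy chain Ighm fell from 19.3, 21.97, 32.2 and 26.6 CPM to 14.7, 14.7, 14.4 and 17.1 CPM (-0.72 ± 0.15, p-adj = 0.0468).

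Red blood cell genes were increased in 5 of 13 cases, and these were high in SCI 1, 2 and 3 and not in SCI 4. The beta globin Hbb-bs was at 11.4, 12.1, 11.3 and 7.92 CPM in uninjured and 40.1, 56.04, 42.7 and 13.5 CPM in SCI mice (1.84 ± 0.34, p-adj = 0.0359), so that SCI 4 was just above the uninjured range. For Hbb-bt (1.70), Hba-a1 (1.62), Hba-a2 (1.35) and the membrane protein gene Epb42 (1.88) the groups overlapped. The alpha globins and the beta globins are near-identical pairs, and reads may be split between them. The 4 haemoglobin genes and Alas2 moved with the groups at a Pearson correlation of 0.79 over the 8 libraries, which is a description only. When their summed level was added to the model after the data were seen, 9 genes were increased and none decreased (edgeR), and 2 of the 26 glucocorticoid genes were called. The covariate and the groups move together, and the part of blood in the response was not tested beyond this. Of 14 genes of activated endothelium, 2 were increased, among them the protein C receptor gene Procr, from 2.81, 3.94, 3.79 and 3.80 CPM to 6.22, 5.64, 4.68 and 6.03 CPM (0.64 ± 0.14, p-adj = 0.0657), and none fell by either tool. DESeq2 called 4 higher. None of 17 endothelial identity genes, 13 mural cell genes or 6 platelet genes was called by edgeR. DESeq2 called 1 endothelial gene higher and 1 platelet gene lower, and 4, 3 and 1 of these genes had an unadjusted p under 0.05.

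Matrix genes shifted without a common direction. Periostin (Postn, chr3:54361109-54391037), a matrix protein of fibroblasts in growing and injured tissue, showed the clearest fall. It was at 36.7, 48.2, 53.97 and 40.5 CPM in uninjured and 20.4, 21.4, 18.99 and 20.4 CPM in SCI mice (-1.15 ± 0.12, p-adj = 0.00186), and the 4 SCI mice lay within a narrow range. Lysyl oxidase (Lox), which crosslinks collagen and elastin, rose from 14.7, 11.1, 13.3 and 16.6 CPM to 25.1, 43.9, 61.2 and 22.4 CPM (1.46 ± 0.29, p-adj = 0.0447), most in SCI 2 and 3. These were the 2 genes called of 32 in collagen maturation and fibrous matrix. Of 41 collagen chains, 30 had a negative fold change with a median of -0.23, but only Col28a1, a collagen found around DRG neurons and peripheral glia, was called, at 203, 147, 131 and 126 CPM and 83.5, 99.3, 83.8 and 88.5 CPM (-0.77 ± 0.14, p-adj = 0.0349). No collagen was increased by edgeR or DESeq2, 2 were decreased by DESeq2, and 6 had an unadjusted p under 0.05. Among 17 fibroblast genes, the actin-severing protein gene Gsn (0.47) and the glucose transporter gene Slc2a1 of the perineurium (0.32) were increased and the keratan sulfate proteoglycan Lum (-0.71) decreased, with the groups just overlapping for Lum. Of 27 proteases and inhibitors, 2 were increased, among them the metalloproteinase Adamts1 (0.57), and 1 was decreased, the thrombin inhibitor Serpine2 (-0.33). Of 32 laminin and integrin chains, Itgb6, a chain of an integrin that activates TGF-beta, was decreased (-0.61) and none increased by edgeR or DESeq2.

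Few glial genes were called. Of 20 satellite glial genes, 2 were increased and 1 decreased, and DESeq2 called 2 and 3. Fold changes were positive for 7 of these genes and negative for 13. An unadjusted p under 0.05 (edgeR) was found for 12 of them and for 9 of 20 myelin genes, beside 2570 of the 17616 genes tested. Gfap, the intermediate filament of reactive glia, was at 0.608, 0.968, 1.15 and 1.68 CPM in uninjured and 1.78, 3.89, 3.73 and 1.93 CPM in SCI mice (1.34 ± 0.33, p-adj = 0.0948), with the higher values in SCI 2 and 3. Glul, the glutamine synthetase of satellite glia described above among the glucocorticoid genes, was at 445, 463, 439.8 and 477 CPM and 572, 585, 592 and 530.1 CPM. Ednrb, the endothelin B receptor, fell from 139.9, 144, 136 and 125 CPM to 83.1, 100.1, 111 and 93.1 CPM (-0.49 ± 0.09, p-adj = 0.0358). Of 20 myelin genes, Ncmap, a small myelin protein, rose (0.54) and Pmp2, a fatty acid binding protein of peripheral myelin, fell from 1.87, 1.91, 1.75 and 1.13 CPM to 0.303, 0.749, 0.625 and 0.450 CPM (-1.62 ± 0.28, p-adj = 0.0288). The exons of Pmp2 overlap another gene on the same strand over 86.9% of their bases, so its reads cannot be told apart from those of that gene. Of 13 genes of Schwann cells after nerve injury, Egfl8 was decreased (-0.58) and none increased by either tool, and DESeq2 called 3 lower. None of 8 markers of spinal cord glia was called by either tool or had an unadjusted p under 0.05.

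No gene of general neuronal identity was called, and few genes of neuron subtypes were. None of 18 pan-neuronal and sensory neuron genes was called by edgeR or DESeq2, 2 had an unadjusted p under 0.05, and their median was -0.03. Of 23 nociceptor genes, Osmr was increased, and 2 receptors of the Mrgpr family were decreased. Mrgprd, which marks nonpeptidergic nociceptors of the skin, fell from 207, 197, 195 and 209 CPM to 160.5, 151, 164 and 173 CPM (-0.32 ± 0.06, p-adj = 0.0435). Mrgpra3, the chloroquine receptor of itch neurons, fell from 5.85, 6.46, 7.97 and 8.26 CPM to 4.14, 3.92, 4.77 and 5.13 CPM (-0.67 ± 0.14, p-adj = 0.0548). The Mrgpr genes form a family of close copies. Of 23 genes of mechanoreceptors and proprioceptors, the nuclear receptor Esrrg was decreased (-0.36) and none increased by either tool. Cartpt, which encodes the CART peptide, was the only gene called by edgeR of 25 neuropeptides, where DESeq2 called 1 higher and 3 lower. It was at 3.70, 6.80, 7.14 and 6.90 CPM in uninjured and 10.8, 9.92, 10.7 and 11.02 CPM in SCI mice (0.77 ± 0.17, p-adj = 0.0708).

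Among the potassium, sodium and calcium channel lists, only potassium channel genes were called by edgeR. Called genes of transmitter-gated and acid-sensing channels are given further below. Of 74 potassium channel genes, 4 were decreased (beside 0.937% of all genes) and none increased, and 50 had a negative fold change (median -0.08). The lists of 17 sodium and 22 calcium channel genes below are too small for the absence of calls to mark a contrast between channel types. DESeq2 called 5 lower and 1 higher. Kcnk1, a background leak channel, fell from 127, 128, 132 and 136 CPM to 97.8, 107, 89.4 and 98.5 CPM (-0.42 ± 0.07, p-adj = 0.0226). Kcns1, a silent subunit that modifies Kv2 channels in large sensory neurons, fell from 175, 145, 139.5 and 136 CPM to 108, 112, 108 and 112 CPM (-0.44 ± 0.08, p-adj = 0.0378). Kcnk10, the leak channel TREK-2 (-0.36), and Kcnd2, a subunit of A-type current (-0.62), fell as well, and for all 4 genes every SCI mouse was below every uninjured mouse. None of 17 sodium channel genes was called by either tool, and 3 had an unadjusted p under 0.05. None of 22 calcium channel genes was called by edgeR, 3 were higher by DESeq2 and 4 had an unadjusted p under 0.05. Of 44 transmitter receptor subunits, 3 were increased and none decreased, and DESeq2 called 4 and 3. The 2 subunits of the serotonin-gated cation channel rose together: Htr3a was at 211, 222, 216 and 206 CPM and 266, 273, 251 and 253 CPM (0.29 ± 0.06, p-adj = 0.0455), and Htr3b was at 22.6, 25.7, 22.98 and 22.03 CPM and 32.7, 35.5, 30.5 and 31.7 CPM (0.48 ± 0.08, p-adj = 0.0227). The GABA-A subunit Gabra5 rose from 4.26, 4.03, 4.97 and 5.01 CPM to 6.63, 7.60, 8.38 and 6.30 CPM (0.66 ± 0.13, p-adj = 0.0408). Asic3, the acid-sensing channel of muscle and joint afferents, was the only gene called by edgeR of 22 in sensory transduction (0.27), where DESeq2 called 1 higher and 1 lower.

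**Figure D5:**
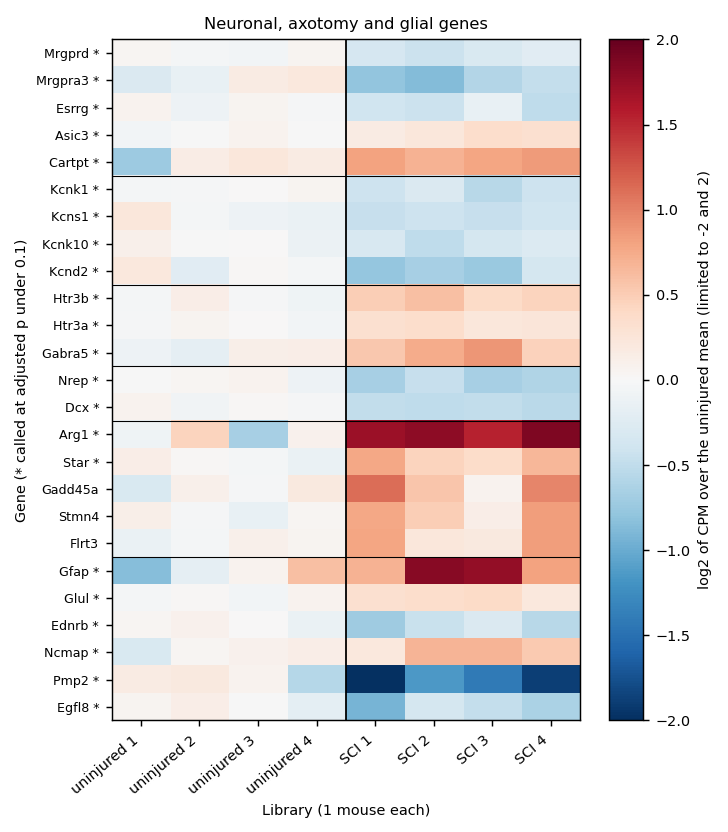
Log2 of CPM over the uninjured mean for neuronal, axotomy-induced and glial genes by library, with an asterisk on called genes and lines between groups of genes (sensory identity and peptides, potassium channels, transmitter receptors, growth cone genes, axotomy-induced genes and glia). The 4 potassium channels are blue in all SCI libraries, and Gadd45a, Stmn4 and Flrt3 are darker in SCI 1 and 4 than in SCI 2 and 3.

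Of 22 tested genes that are known to be induced in DRG by cutting a peripheral nerve, 2 were increased and none decreased. Arg1, an arginase that supports axon growth, was at 0.234, 0.338, 0.157 and 0.262 CPM in uninjured and 0.807, 0.856, 0.718 and 0.899 CPM in SCI mice (1.68 ± 0.26, p-adj = 0.0175), and Star, which carries cholesterol into mitochondria, was at 9.31, 8.62, 8.21 and 7.74 CPM and 14.4, 11.5, 10.9 and 13.4 CPM (0.57 ± 0.11, p-adj = 0.0435). DESeq2 called 7 higher and 2 lower. The stress sensor Gadd45a was at 16.3, 21.6, 19.8 and 23.1 CPM in uninjured mice and 43.7, 29.9, 21.3 and 39.8 CPM in SCI mice (0.73 ± 0.20, p-adj = 0.136). Stmn4, a microtubule regulator, was at 9.17, 8.30, 7.61 and 8.63 CPM and 14.3, 11.8, 9.24 and 15.1 CPM (0.58 ± 0.15, p-adj = 0.112), and Flrt3, an adhesion molecule, at 17.1, 18.3, 20.03 and 19.5 CPM and 32.4, 21.9, 21.4 and 33.6 CPM (0.54 ± 0.15, p-adj = 0.140). These 3 genes, picked after their values were seen, were highest in SCI 1 and SCI 4, the libraries with muscle RNA. Galanin (Gal), a peptide strongly raised by nerve cut, was at 1.03, 3.76, 3.16 and 3.49 CPM and 5.04, 4.67, 3.52 and 3.24 CPM (0.49 ± 0.30, p-adj = 0.502). Of 31 cytoskeletal and growth cone genes, 2 were decreased and none increased. Nrep, a small protein of regenerating neurons, fell from 26.1, 27.2, 27.7 and 24.5 CPM to 16.6, 19.2, 16.6 and 17.4 CPM (-0.60 ± 0.08, p-adj = 0.00925), and doublecortin (Dcx), which binds microtubules, from 6.18, 5.56, 5.94 and 5.77 CPM to 4.17, 4.10, 4.17 and 4.05 CPM (-0.50 ± 0.09, p-adj = 0.0358). The growth-associated protein gene Gap43 was at 174, 169.7, 173 and 173 CPM and 162, 152, 134 and 158 CPM (-0.19 ± 0.07, p-adj = 0.250). DESeq2 called 1 gene of this list higher and 4 lower. Of 64 axon guidance genes, Epha7 rose (0.40) and Epha4 (-0.48) and Sema3c (-0.28) fell. None of 28 axonal motor, 37 synaptic vesicle or 25 neurotrophic receptor genes was called by edgeR. DESeq2 called 1 gene of each list lower, and 3, 4 and 1 had an unadjusted p under 0.05.

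Among general cell functions, few genes were called. None of 75 respiratory chain genes was called by either tool or had an unadjusted p under 0.05, although 67 had a positive fold change (median 0.15). Of 36 heat shock genes, Hspa4l (-0.28) and the inducible Hspa1b (-0.52) were decreased, and of 37 genes of the unfolded protein and integrated stress responses, the calcium-binding chaperone gene Calr (-0.39) was decreased, with none increased by edgeR in both lists. DESeq2 called 1 and 2 higher in these lists, and 4 and 2 lower. An unadjusted p under 0.05 (edgeR) was found for 14 of the 36 and 7 of the 37 genes. Among the heat shock genes, every SCI library lay below every uninjured library for 7 and above for 3, beside 6.07% and 4.92% of all genes. Txnip, an inhibitor of thioredoxin and of glucose uptake, was increased from 74.2, 65.97, 58.8 and 57.5 CPM to 105, 113, 109 and 84.9 CPM (0.68 ± 0.11, p-adj = 0.0200), alone by edgeR among 26 oxidative stress genes, and DESeq2 called 3 higher. Of 34 hypoxia and glycolysis genes, 3 were increased, Hif3a, the glycolytic enzyme gene Pfkfb3 (0.45) and Slc2a1, and none decreased. DESeq2 called 4 higher and 1 lower. Klf15, a transcription factor of fasting and glucocorticoid response, rose from 12.3, 12.3, 13.96 and 16.1 CPM to 22.4, 27.4, 22.7 and 21.8 CPM (0.78 ± 0.11, p-adj = 0.0138), and the insulin-like growth factor binding proteins Igfbp2 (-0.45) and Igfbp4 (-0.52) fell, among 33 genes of FOXO signalling, atrophy and autophagy. Fatty acid use and PPAR target genes included Plin4 and the fatty acid binding protein Fabp4 (1.57), which were increased, and none of 33 decreased by either tool. Fabp4 was also the only called gene of 4 adipocyte genes tested, all of which had a positive fold change. With Fabp4 included, these summed to 0.761 to 2.22 CPM in uninjured and 2.52 to 4.44 CPM in SCI mice. The part of adipocyte RNA in the increases of Fabp4 and Plin4 was not tested. Of 47 cell cycle genes, Prc1 (0.53) rose and cyclin D1, Ccnd1 (-0.51), fell. None of 46 histone and DNA modifiers was called by edgeR, 1 was lower by DESeq2, and 5 had an unadjusted p under 0.05.

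Many of the strongest changes lay outside these lists, which held 105 of 408 DE genes. Dpep1 (chr8:123186242-123201812), a membrane dipeptidase that cleaves glutathione and leukotriene D4, was at 1.78, 2.90, 2.67 and 2.54 CPM in uninjured and 10.7, 11.5, 11.6 and 8.95 CPM in SCI mice (2.09 ± 0.15, p-adj = 0.000437). Ltbp2, a latent TGF-beta binding protein of elastic fibres, rose from 7.44, 6.93, 7.01 and 6.29 CPM to 19.8, 16.4, 22.5 and 17.1 CPM (1.46 ± 0.12, p-adj = 0.000535). Fam107a, an actin-binding protein raised by stress and glucocorticoids, rose from 19.7, 18.3, 18.1 and 24.1 CPM to 42.1, 61.2, 45.2 and 47.9 CPM (1.29 ± 0.13, p-adj = 0.00190). All SCI mice stood clear of all uninjured mice for these genes, which the rule for naming genes outside the lists required. The cytochrome P450 gene Cyp2d22 (1.09), the olfactory receptor gene Olfr920 (1.65) and the dioxygenase gene Phyhd1 (2.14) rose as well, the last at under 1 CPM and with 47.0% of its exon bases shared with other genes. Apol11b was at 0.187, 0.135, 0.0784 and 0.0787 CPM and 0.605, 1.03, 0.486 and 0.225 CPM (2.35 ± 0.49, p-adj = 0.0517). Actn2, the sarcomeric alpha-actinin, was at 0.515, 0.428, 0.628 and 0.892 CPM and 5.18, 1.18, 1.27 and 8.32 CPM (2.64 ± 0.63, p-adj = 0.0865), highest in SCI 1 and 4 with the muscle markers. Ccl6, Dpep1, Itih3, Ltbp2, Plin4 and Zbtb16 were the 6 genes of 135 called and named that kept their call under every alternative tried.

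Decreases outside the lists included transporters, enzymes and signalling genes. Slco5a1, an organic anion transporter, fell from 107, 101, 106 and 110.1 CPM to 75.1, 77.1, 83 and 74.8 CPM (-0.45 ± 0.06, p-adj = 0.0109). The short-chain dehydrogenase gene Dhrs2 fell from 5.29, 5.94, 5.33 and 4.90 CPM to 2.56, 2.53, 2.04 and 3.28 CPM (-1.06 ± 0.15, p-adj = 0.0120). Mettl16, an RNA methyltransferase that controls the methyl donor S-adenosylmethionine, fell from 50.3, 41.5, 46.99 and 47.3 CPM to 31.6, 33.4, 33.7 and 31.2 CPM (-0.52 ± 0.07, p-adj = 0.0133). Each of these falls separated the groups, again as the rule for naming them required. Gjd2, the neuronal gap junction protein connexin 36, fell from 6.69, 6.84, 7.24 and 7.08 CPM to 3.36, 4.71, 4.12 and 3.91 CPM (-0.79 ± 0.12, p-adj = 0.0144). The same rule holds for the next genes, so their groups did not overlap either. Rem2, a small GTPase that inhibits calcium channels, fell from 19.5, 15.8, 13.9 and 11.3 CPM to 8.14, 7.85, 8.11 and 8.68 CPM (-0.88 ± 0.15, p-adj = 0.0283). Frzb, a secreted Wnt antagonist, fell from 39.9, 37.8, 41.2 and 40.4 CPM to 28.4, 29, 27.3 and 31.9 CPM (-0.45 ± 0.07, p-adj = 0.0184). Inka2 (-0.51), Arhgef3 (-0.42), Ankrd34c (-0.54), Lrrn4 (-0.88), Tmc5 (-0.92) and Lctl (-1.03) also fell. Cfap70 (-0.91), the secreted phospholipase Pla2g5 (-0.88) and the epithelial transcription factor Trp63 (-0.87) fell at levels near 1 CPM, where counts of 14 to 67 reads per library stand behind each value.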

How the data were processed

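RNA-seq counts per gene were deposited by the authors for each of 8 libraries of whole L4 DRG, 4 uninjured and 4 taken 1 day after SCI, grouped by sample title, with 1 mouse per library. Per the labels and the methods of the study, ribosomal RNA was depleted, reads were trimmed with cutadapt, aligned with STAR 2.5.3a to mm10 and counted per gene with HTSeq 0.6.1. The strand setting of the counting is not given in the sources used here. Deposited lines that name no gene held 33.1 to 37.0% of all reads counted and were left out of library sizes. Between 21959030 and 44493319 reads per library were on genes.

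The 17616 genes that averaged 10 reads or more per library were fitted with edgeR 4.0.16 (R 4.3.3) by the quasi-likelihood F-test on TMM-scaled counts with group as the only term, and Benjamini-Hochberg adjustment over all genes tested. Genes with an adjusted p under 0.1 were called DE. The biological coefficient of variation was 0.133 and the median SE of a log2 fold change 0.12. CPM values were scaled by TMM. No p-value was given for a gene list or a summed level. The fit was tested on simulated data in which 200 genes were changed. At a log2 change of 0.5, edgeR recovered 75 of them with 13 false calls, and DESeq2 recovered 106 with 40. At a log2 change of 1, each tool recovered 171, with 28 false calls by edgeR and 60 by DESeq2. In each case the false calls were a larger share of all calls than the threshold of 0.1. The simulated counts varied independently from gene to gene. They held no shift shared by many genes of a library, so the false calls need not match those in these data. Alternatives were DESeq2 1.42.0, its size factors, total counts, other filters on low counts, a threshold of 0.05, a replicate block, an erythroid covariate, and each library left out. A haemoglobin and Alas2 covariate and the fits without pairs of libraries were added after the data were seen.

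The comparison and the gene lists were chosen with earlier results of these data known, so the lists give no independent support. Genes named were the 12 DE genes in each direction with the smallest adjusted p and the 10 with the largest fold change among those whose groups did not overlap, and up to 6 called members of each list per direction. Genes named beyond this rule were chosen after their values were seen and are those with values beside a list's count and those in the closing section. Exons shared between genes were taken from the GRCm38 annotation, and promoters from RefSeq on GRCm38.p6. The replicate numbers were not taken to pair the mice. Among 8 library measures compared between groups, the smallest exact two-sided permutation p was 0.0857 (adjusted 0.457), where 70 regroupings allow no less than 0.0286. Fold change and p-value columns of other deposited tables were not used, some called list members are not reported here, and the 66 libraries of sorted neurons were not used.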

Additional observations from a re-analysis of the deposited data

Results flagged for a closer look

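In 20 of 300 groups of 4 mice examined, 2 for each of 150 genes, 1 mouse stood apart from its 3 fellows by Dixon's ratio of the gap to the range, and chance alone gives about 1 in 20. In 6 of these it was uninjured 1. Acta1 was at 2.57 CPM in uninjured 4 (0.795 to 1.02 CPM in the others), and Ankrd34c was at 21.3 CPM in SCI 3 (17.3 to 17.9 CPM in the others). Arrdc2 was at 50.2 CPM in SCI 2 (32.9 to 34.4 CPM in the others), and Bok was at 14.1 CPM in uninjured 1 (11.1 to 11.6 CPM in the others). Calr was at 494 CPM in uninjured 1 (390.1 to 405 CPM in the others), and Cartpt was at 3.70 CPM in uninjured 1 (6.80 to 7.14 CPM in the others). Ccnd1 was at 19.6 CPM in SCI 4 (22.8 to 23.01 CPM in the others), and Epha7 was at 8.14 CPM in uninjured 1 (8.58 to 8.60 CPM in the others). Fcgr3 was at 1.45 CPM in uninjured 1 (2.90 to 3.10 CPM in the others), and Hsd11b1 was at 0.713 CPM in SCI 2 (1.25 to 1.34 CPM in the others). Ighm was at 17.1 CPM in SCI 4 (14.4 to 14.7 CPM in the others), and Itgam was at 1.89 CPM in SCI 2 (1.26 to 1.34 CPM in the others). Klf15 was at 27.4 CPM in SCI 2 (21.8 to 22.7 CPM in the others), and Lctl was at 0.908 CPM in SCI 1 (1.35 to 1.44 CPM in the others). Pdk4 was at 36.02 CPM in SCI 1 (10.8 to 12.8 CPM in the others), and Pla2g5 was at 1.01 CPM in SCI 1 (0.648 to 0.678 CPM in the others). Procr was at 2.81 CPM in uninjured 1 (3.79 to 3.94 CPM in the others), and Serpina3c was at 6.44 CPM in SCI 3 (8.03 to 8.32 CPM in the others). Trp63 was at 0.486 CPM in SCI 3 (0.706 to 0.720 CPM in the others), and Zbtb16 was at 18.1 CPM in SCI 1 (20.1 to 20.4 CPM in the others).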

How the results depend on the processing

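DESeq2 called 509 genes higher and 420 lower, and a threshold of 0.05 called 118 and 84. The erythroid covariate, the summed level of 13 genes, gave 843 and 910. It had a Pearson correlation with group of 0.11, against 0.79 for the haemoglobin genes and Alas2, and was highest in SCI 3 and uninjured 1. The haemoglobin and Alas2 covariate, added after the data were seen, gave 9 higher and 0 lower. Under that covariate Hba-a1 (-0.23), Hba-a2 (-0.16), Hbb-bt (-0.14) and S100a8 (-0.76) changed direction. Without SCI 1 and 4, also added, 187 and 45 genes were called and Acta1 changed direction (-0.54), and without uninjured 1 and SCI 3, 914 and 1127. Leaving out 1 library at a time gave 70 to 361 higher and 32 to 279 lower: 70 and 35 without uninjured 2, 72 and 32 without uninjured 3, 90 and 55 without uninjured 4, 107 and 42 without SCI 1, 101 and 68 without SCI 2, and 361 and 279 without SCI 3. The log2 fold change of Mt3, which was not called, ranged from -0.000281 without uninjured 1, where it changed direction, to 0.30. The cause of these shifts was not tested. All 408 calls that were tested again kept their direction, apart from Hba-a1, Hba-a2 and Hbb-bt under the haemoglobin covariate. Counts with DESeq2 size factors (243 and 165), total counts (259 and 150), no filter (360 and 189) and a mean count of at least 50 (198 and 150) stayed within 1.5 times. Of 135 called genes named, 129 lost their call under some alternative. With the replicate number as a block, 94 genes were higher and 33 lower. Mice with the same number deviated from their group means with correlations of -0.158, 0.053, -0.031 and 0.257, so the numbers were not taken to pair them. The median SE of 0.12 on the log2 scale limits the detection of small changes.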

Other observations

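Other genes with known functions outside the lists, picked after their values were seen, changed as follows. Some G protein-coupled receptors fell and others rose. The galanin receptor Galr1 went from 9.87, 8.69, 9.47 and 9.84 CPM in uninjured to 5.92, 4.78, 4.21 and 6.39 CPM in SCI mice (-0.84 ± 0.14, p-adj = 0.0227), and the somatostatin receptor Sstr2 from 8.00, 8.46, 8.63 and 8.37 CPM to 6.16, 5.42, 4.56 and 5.04 CPM (-0.66 ± 0.11, p-adj = 0.0241). The serotonin receptor Htr1d, the target of triptans, went from 56.7, 55.95, 55.1 and 54.2 CPM to 39.3, 46.3, 43.6 and 40.02 CPM (-0.39 ± 0.07, p-adj = 0.0332), and the cholecystokinin receptor Cckar (-0.41) and the histamine receptor Hrh1 (-0.51) were lower too, whereas the angiotensin receptor Agtr1b and the chemokine receptor Ccr1 were higher. The pro-apoptotic BCL2 family gene Hrk was at 1.59, 1.55, 1.39 and 2.05 CPM and 3.23, 4.49, 2.92 and 3.73 CPM (1.12 ± 0.18, p-adj = 0.0223), and Pmaip1 (0.95), Bok (0.64) and the protective Bcl2l1 (0.29) of the same family were also called higher. The other members of both families were not counted.

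The angiotensin receptor Agtr1b was at 6.50, 9.07, 8.79 and 9.55 CPM in uninjured and 15.9, 15.1, 12.9 and 15.6 CPM in SCI mice (0.80 ± 0.13, p-adj = 0.0200). The sodium transporters Slc9a3 (1.26) and Slc12a3 (1.04) and the kinase Wnk4 (0.64), which are best known from kidney, were increased. Hsd11b1, which regenerates active glucocorticoid inside cells, was at 0.468, 0.428, 0.628 and 0.603 CPM and 1.34, 0.713, 1.25 and 1.26 CPM (1.09 ± 0.25, p-adj = 0.0706). The iron regulator Hfe was increased (0.47) and the transferrin receptor Tfrc decreased, from 299, 327, 342 and 330.5 CPM to 225, 265, 203 and 265 CPM (-0.44 ± 0.09, p-adj = 0.0546). Tissue factor, F3, which starts coagulation, rose from 9.03, 10.9, 14.02 and 13.1 CPM to 21.3, 32.1, 25.6 and 24.3 CPM (1.13 ± 0.16, p-adj = 0.0118).

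Of the genes increased, Igfn1, Unc45b and Mstn are muscle genes. Igfn1 was at 0.234, 0.158, 0.0784 and 0.420 CPM and 12.8, 0.392, 0.787 and 7.92 CPM (4.60 ± 1.10, p-adj = 0.0870), Unc45b at 0.328, 0.360, 0.314 and 0.184 CPM and 1.72, 0.464, 0.787 and 1.66 CPM (1.93 ± 0.43, p-adj = 0.0706), and myostatin, Mstn, at 0.561, 0.405, 0.575 and 0.446 CPM and 2.49, 0.963, 0.903 and 1.44 CPM (1.54 ± 0.35, p-adj = 0.0706). None of 11 skeletal muscle genes was itself called by edgeR, although their median fold change was 4.52, DESeq2 called 8 and 10 had an unadjusted p under 0.05. Acta1, skeletal actin, was at 0.795, 0.810, 1.02 and 2.57 CPM and 63.6, 0.999, 0.834 and 56.5 CPM. The part of muscle RNA in the other calls was not tested beyond the fit without SCI 1 and 4.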
